A study of Oryza sativa with 8 samples.

Results

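The Aux/IAA genes of rice (Oryza sativa) encode nuclear proteins, typically short-lived, that hold auxin responses in check. The family was followed here by locus identifier, from IAA1 to IAA31, and 30 of the 31 listed loci had a row in a table of 55801 loci; IAA5 (LOC_Os01g48450) was not analysed here. Of these 30, 27 passed the expression filter, an FPKM (a fragment count scaled to gene length and to library total) of at least 1 in at least 2 libraries, and 3 did not.

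The study sequenced RNA of rice roots in a seed priming experiment with carbon dots, which are carbon particles in the nanometre range. Its 8 libraries form 4 groups of 2. D4_CK and D6_CK are controls whose treatment label reads normal, and D4_100X and D6_100X carry the carbon dot label 100X CD. The labels explain neither D4 and D6 nor the scale of 100X, name no cultivar, and do not say whether replicates came from separate plants, so p-values measure the spread between these libraries, which may be technical.

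Auxin acts by binding an F-box receptor of the TIR1/AFB family, which then grips an Aux/IAA protein and marks it for destruction. Which members carry the part that the receptor grips was not examined here. While they last, Aux/IAA proteins sit on auxin response factors (ARFs), the DNA-binding proteins of the pathway, and recruit TOPLESS-related co-repressors that keep the target genes silent. Many Aux/IAA genes are themselves switched on by ARFs, so the family forms part of a negative feedback loop. In rice roots the pathway is known for its part in lateral root and crown root formation, gravitropism and the upkeep of the root tip.

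The total behind the FPKM was nearly the same in every library. Inferred from the steps between low values, it was 22.9 M fragments in all 8, so that 1 read on a gene of 1 kilobase was worth 0.0437 FPKM. It ran from 22.866 to 22.868 M, and whether it is the depth that was sequenced is not known. The tissue label was checked against fixed markers: 5 green shoot loci reached at most 1.98 FPKM and 2 seed storage loci at most 2.23, while NIP2-1, the silicon influx channel gene of roots, stood between 175 and 805 FPKM. The median SD between replicates over the 27 members was 0.0913 in D4_CK, 0.183 in D4_100X, 0.0929 in D6_CK and 0.146 in D6_100X, on the log2(FPKM + 1) scale.

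Most of the family's transcript came from a few genes. Levels are FPKM, which are scaled to gene length and can be set side by side between genes. Summed over the 30 loci, the family stood at 1365 and 1417 FPKM in D4_CK, 1318 and 1592 in D4_100X, 1164 and 1180 in D6_CK, and 1202 and 1320 in D6_100X. The 5 most abundant members held between 58.7% and 62.0% of that sum in each library. Averaged over the 8 libraries, 6 members were at 100 FPKM or more, 11 lay between 10 and 100, and 10 of the tested ones were below 10.

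**Figure D1:**
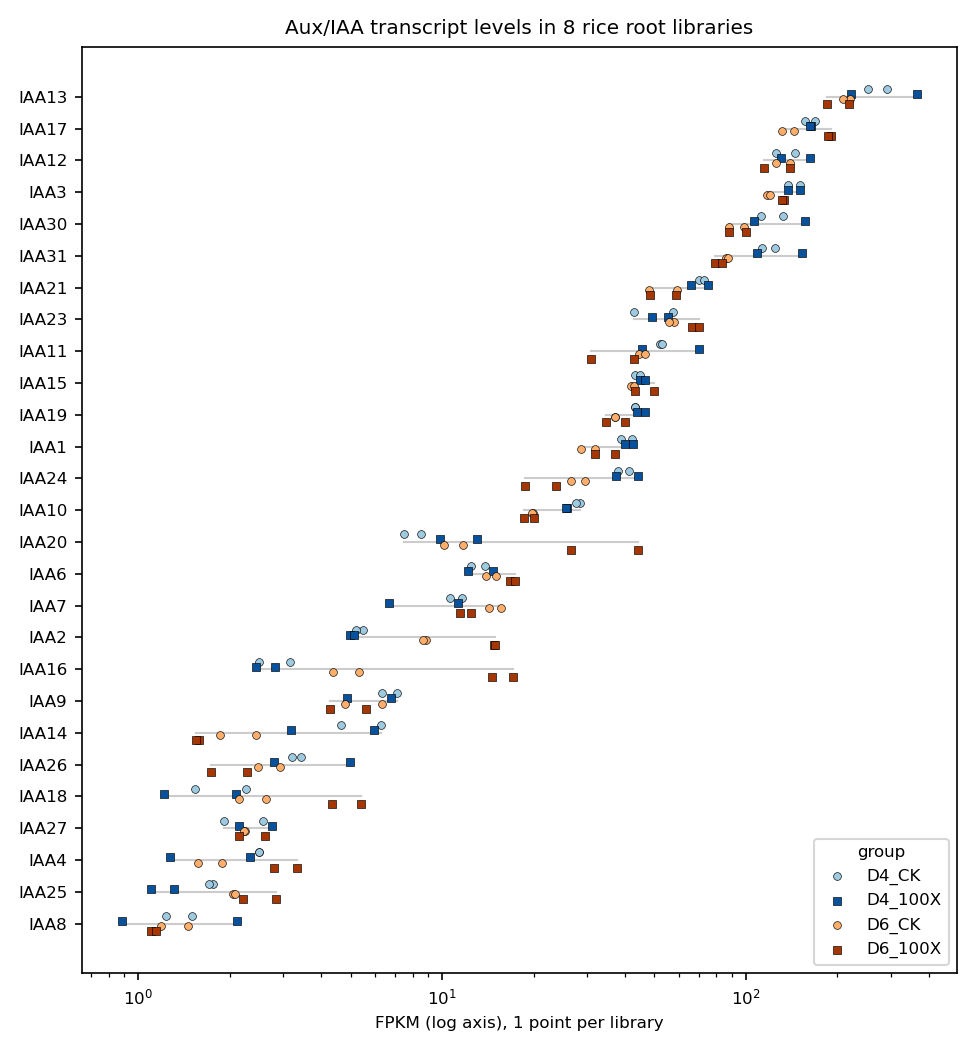
FPKM of the 27 tested Aux/IAA genes on a log axis, 1 point per library, with genes ordered by their mean over 8 libraries and colours for the 4 groups. IAA13 leads the family between 185 and 366 FPKM, and the points of IAA16 and IAA20 spread furthest, with the D6_100X libraries at the high end.

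IAA13 (LOC_Os03g53150, chromosome 3), whose stabilised mutant form blocks lateral root initiation in rice, had the highest mean. It stood at 253 and 291 FPKM in D4_CK, 222 and 366 in D4_100X, 221 and 209 in D6_CK, and 185 and 219 in D6_100X. The 2 libraries of D4_100X were the furthest apart, and the control and carbon dot groups overlapped at D4 and at D6.

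IAA17 (LOC_Os05g14180, chromosome 5) came next, with 168 and 156 FPKM in D4_CK, 163 and 163 in D4_100X, 132 and 144 in D6_CK, and 191 and 186 in D6_100X. Both D6_100X libraries were above the other 6. IAA12 (LOC_Os03g43410, chromosome 3) was at 126 and 145 FPKM in D4_CK, 130 and 163 in D4_100X, 140 and 125 in D6_CK, and 115 and 139 in D6_100X, and its 4 groups overlapped.

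IAA3 (LOC_Os01g13030, chromosome 1) stood at 151 and 138 FPKM in D4_CK, 151 and 138 in D4_100X, 117 and 120 in D6_CK, and 134 and 132 in D6_100X. The D4 values of its control and carbon dot libraries were nearly the same, and at D6 the carbon dot libraries were both above the controls. IAA30 (LOC_Os12g40890, chromosome 12) was at 112 and 133 FPKM in D4_CK, 106 and 157 in D4_100X, 88.0 and 98.3 in D6_CK, and 88.1 and 100.2 in D6_100X, so its treatment groups overlapped and its D6 values lay below its D4 values.

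IAA30 and its neighbour IAA31 (LOC_Os12g40900) had no gene between them in the RefSeq table, and their means over all libraries were 110.3 and 104.4 FPKM. IAA11 (LOC_Os03g43400) and IAA12 were likewise adjacent on chromosome 3, at 48.2 and 135 FPKM. IAA11 is another member whose stabilised form is known to block lateral roots. The loci IAA27, IAA28 and IAA29 have consecutive identifiers on chromosome 11, and of these IAA27 was at 1.92 to 2.76 FPKM, IAA28 was above 0 in 1 library at 0.182 FPKM, and IAA29 was listed at 0 in all 8. IAA22 (LOC_Os06g24850), the remaining untested member, reached 1.36 FPKM in 1 library and was listed at 0 in another, on 0 to 14 reads. Whether the authors' counting divided reads between similar members was not tested.

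Members also varied among themselves in how steady they were. The ratio of the highest to the lowest of the 8 libraries was 1.19 for IAA15, 1.29 for IAA3 and 1.35 for IAA19, and it reached 7.0 for IAA16, 5.88 for IAA20, 4.45 for IAA18 and 4.05 for IAA14. Of the members in the middle of the range, IAA21 lay between 48.0 and 75.1 FPKM, IAA23 between 42.7 and 69.9, IAA15 between 41.8 and 49.8, IAA19 between 34.5 and 46.7 and IAA6, which has been tied to drought tolerance in rice, between 12.2 and 17.4. IAA9 (4.29 to 7.13 FPKM), IAA26 (1.74 to 4.99) and IAA8 (0.883 to 2.12) were low throughout, and IAA8 rested on 20 to 48 reads a library.

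At D6, the comparison asked which members differed between carbon dot and control roots. IAA16 and IAA2 rose in the carbon dot roots and no member fell past the threshold, a limma adjusted p under 0.05 over all 22794 tested loci. That is 2 of 27 tested members, or 7.41%, against 0.522% of all tested loci called in either direction, 0.404% higher and 0.118% lower. The family was chosen with earlier results of these data known, so the gap between these shares is not free of that choice. The 27 log2 fold changes ran from -0.40 to 1.57 with a median of 0.01, against a median of -0.02 over all tested loci, so the middle of the family stayed near that of the transcriptome while a few low to middling genes stood above it. Of the 2 root marker loci, LOC_Os02g44310 had a log2 fold change of -0.82 in this comparison (limma adjusted p = 0.179) and NIP2-1 one of 0.10 (limma adjusted p = 0.892), and their part in the members' values was not tested. In RNA from whole roots, more cells of a type and more transcript per cell cannot be told apart.

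IAA16 (LOC_Os05g09480, chromosome 5) stood at 3.16 and 2.50 FPKM in D4_CK, 2.44 and 2.81 in D4_100X, 5.35 and 4.38 in D6_CK, and 14.6 and 17.1 in D6_100X. The D6_100X libraries were far above the other 6, which held between 78 and 171 reads each, against 468 and 546. The group means at D6 were 15.8 ± 1.72 and 4.86 ± 0.685 FPKM (SD, n = 2 libraries each), a ratio of 3.26. The fitted log2 fold change was 1.52 ± 0.15 (SE, limma adjusted p = 0.0316).

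IAA2 (LOC_Os01g09450, chromosome 1) stood at 5.48 and 5.19 FPKM in D4_CK, 4.98 and 5.12 in D4_100X, 8.83 and 8.64 in D6_CK, and 14.8 and 14.9 in D6_100X. Its replicates lay close together in every group, and its 2 D6 groups did not overlap. The D6 means were 14.9 ± 0.0664 and 8.74 ± 0.134 FPKM (SD, n = 2 libraries each), a ratio of 1.70. Its log2 fold change was 0.71 ± 0.09 (SE, limma adjusted p = 0.0450).

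Both calls lay close to the threshold. Each was lost in 6 of the 8 fits with 1 library left out. Such a fit leaves 1 library in its group and fewer degrees of freedom, so a lost call cannot be laid to that library. With 1 library left out the log2 fold changes moved little, from 1.41 to 1.64 for IAA16 and from 0.69 to 0.72 for IAA2. With a pseudocount of 0.1 the limma adjusted p was 0.0502 for IAA16 and 0.0581 for IAA2, and without the expression filter 0.0573 and 0.0652.

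**Figure D2:**
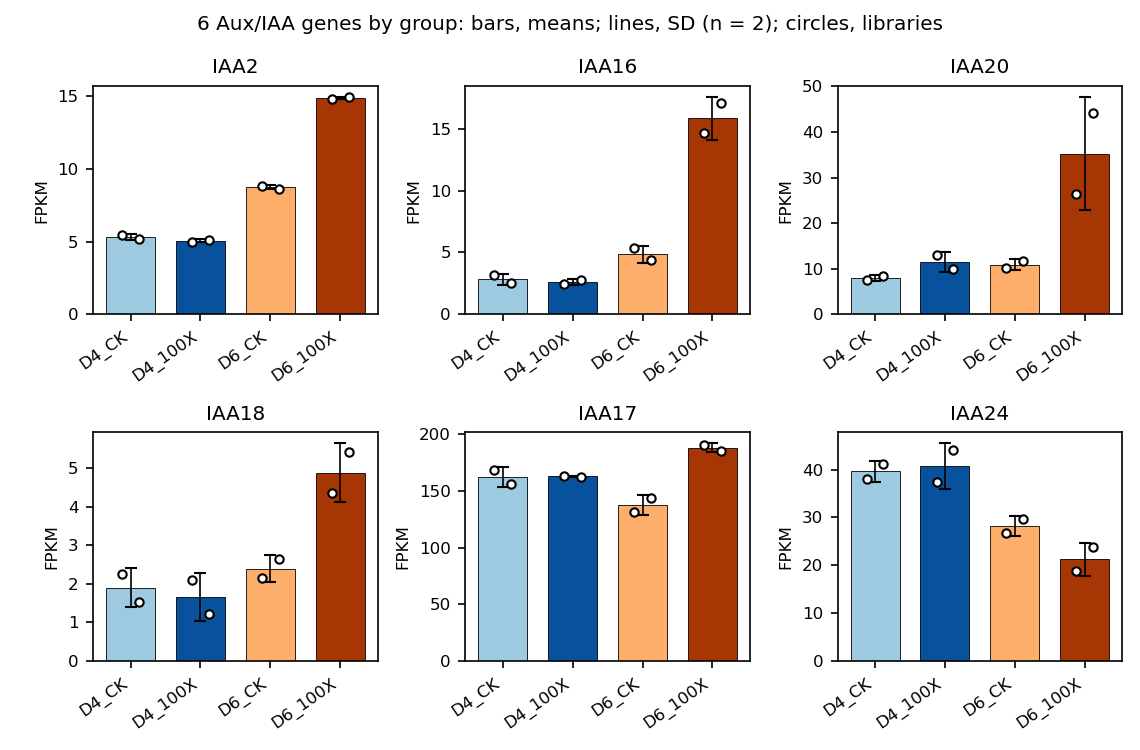
FPKM of 6 Aux/IAA genes in the 4 groups. Bars are means, lines the SD of 2 libraries and circles the libraries, each on its own linear axis. In the D6_100X group IAA16 reaches 15.8, IAA2 14.9 and IAA20 35.3 FPKM on average, while IAA24 has the lowest of its own group means there, at 21.2 FPKM.

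IAA20 (LOC_Os06g07040, chromosome 6), which has been linked in rice to drought and salt tolerance, did not pass. On the log2(FPKM + 1) scale its D6 fold change was the largest of the family. By ratio of D6 means IAA16 was higher, at 3.26 against 3.23 for IAA20. Its values were 7.50 and 8.51 FPKM in D4_CK, 13.0 and 9.86 in D4_100X, 10.1 and 11.7 in D6_CK, and 26.5 and 44.1 in D6_100X. The D6_100X libraries were the 2 highest and were also far from each other. The log2 fold change at D6 was 1.57 ± 0.24 (SE, limma adjusted p = 0.0549), and with the 4 D6 libraries fitted alone it passed (limma adjusted p = 0.0490).

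IAA18 (LOC_Os05g44810, chromosome 5) stood at 2.26 and 1.54 FPKM in D4_CK, 2.09 and 1.22 in D4_100X, 2.15 and 2.64 in D6_CK, and 4.36 and 5.43 in D6_100X. The D6_100X libraries were again above the other 6, on 150 and 187 reads against 42 to 91. Its log2 fold change was 0.79 ± 0.22 (SE, limma adjusted p = 0.173).

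At an unadjusted limma p under 0.05, 7 members differed at D6, 6 of them higher, where 15.8% of all tested loci did. Besides the 4 genes above, these were IAA17 (mean 188 against 138 FPKM, adjusted p = 0.106), IAA4 (3.07 against 1.73 FPKM, adjusted p = 0.248) and, lower, IAA24 (21.2 against 28.1 FPKM, adjusted p = 0.254). IAA4 has been reported to slow growth when overexpressed in rice. The D6 groups did not overlap for 18 members, 11 higher and 7 lower, or 66.7% of the 27, against 57.3% of all tested loci (26.8% higher and 30.5% lower), a share near the background.

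Several members with a described role in roots did not pass at D6. IAA13 averaged 202 ± 23.6 FPKM with carbon dots and 215 ± 8.27 without (limma adjusted p = 0.883). IAA11 was at 36.9 ± 8.45 against 45.5 ± 1.61 FPKM (limma adjusted p = 0.537). IAA23, which is needed to maintain the quiescent centre of the rice root tip, was at 68.2 ± 2.40 against 57.0 ± 1.40 FPKM (limma adjusted p = 0.440). IAA1 was at 34.4 ± 3.80 against 30.3 ± 2.16 FPKM (limma adjusted p = 0.473). Overexpression of a gene named IAA1 was reported to lower the auxin response of rice roots. RefSeq also gives that name to IAA13, and which locus the report concerns was not checked here. The D6 groups of IAA11 and IAA23 did not overlap, and those of IAA13 and IAA1 did. These 4 misses do not show that the genes were alike in both groups.

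IAA2, IAA16 and IAA20, picked for this sum after their values were seen, made up 4.65% and 5.76% of the family's summed FPKM in D6_100X, 2.09% and 2.10% in D6_CK, and 1.12% to 1.55% in the 4 D4 libraries.

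At D4, the same comparison found no member past the threshold, and none at an unadjusted limma p under 0.05, where 1.9% of all tested loci were. The count past the adjusted threshold was 0 of 27 members, with 0% of the 22794 loci called, and limma voom on recovered reads also called 0 members. The log2 fold changes ran from -0.35 to 0.46 with a median of 0.03, against -0.01 over all tested loci. The groups did not overlap for 7 members, IAA15, IAA19 and IAA20 on the higher side and IAA2, IAA4, IAA10 and IAA25 on the lower, or 25.9%, against 19.4% of all tested loci (8.7% higher and 10.7% lower).

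The 3 members furthest from 0 at D4 were IAA20, IAA4 and IAA7. IAA20, with the values given above, had both carbon dot libraries over both controls and a log2 fold change of 0.46 ± 0.24 (SE, limma adjusted p = 1). IAA4 (LOC_Os01g18360, chromosome 1) was at 2.50 and 2.50 FPKM in D4_CK, 1.27 and 2.32 in D4_100X, 1.58 and 1.89 in D6_CK, and 2.81 and 3.33 in D6_100X. Its carbon dot libraries lay below the controls at D4 and above them at D6, on 29 to 76 reads, with a D4 log2 fold change of -0.35 ± 0.20. It was -0.074 without D4_100X replicate 1 and -0.62 without replicate 2. That of IAA20 was 0.27 without D4_100X replicate 1 and 0.64 without replicate 2.

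IAA7 (LOC_Os02g13520, chromosome 2) was at 10.6 and 11.7 FPKM in D4_CK, 6.70 and 11.3 in D4_100X, 14.2 and 15.6 in D6_CK, and 12.5 and 11.5 in D6_100X. Its D4 difference also rested on 1 library: the log2 fold change was -0.32 ± 0.21, 0.022 without D4_100X replicate 1 and -0.65 without replicate 2. IAA16 and IAA2, the genes called at D6, had D4 means of 2.63 ± 0.265 against 2.83 ± 0.464 FPKM and 5.05 ± 0.10 against 5.34 ± 0.200 FPKM.

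At D4, libraries with the same replicate number resembled each other across treatments. For 15 of the 27 members (55.6%) both libraries numbered 2 lay on 1 side of both numbered 1, against 59.9% of all tested loci, and at D6 this held for 3 members (11.1%), against 19%. In the D4 libraries numbered 2, IAA13, IAA12, IAA30, IAA31, IAA11, IAA24, IAA7 and IAA14 were higher, and IAA17, IAA3, IAA23, IAA1, IAA6, IAA9 and IAA18 were lower. The part of this split in the D4 comparison was not tested beyond the fits with a replicate term.

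Whether the carbon dot effect differed between D4 and D6 was tested as an interaction, and no member passed, with 0.00877% of all tested loci called, 0.00439% in each direction. Limma voom called 0 members as well. At an unadjusted limma p under 0.05 there were 7 members, IAA2, IAA4, IAA16, IAA17, IAA18, IAA20 and IAA25, all with a D6 log2 fold change above the D4 one, where 9.27% of all tested loci passed in either direction. IAA4 and IAA25 had values of opposite sign, -0.35 and -0.31 at D4 against 0.57 and 0.19 at D6. The largest differences of log2 fold changes were 1.6 ± 0.22 for IAA16 (SE, limma adjusted p = 0.139), 1.11 ± 0.34 for IAA20 (limma adjusted p = 0.436) and 0.93 ± 0.31 for IAA18 (limma adjusted p = 0.462). The carbon dot differences of IAA16 and IAA2 at D6 are therefore not shown to differ from those at D4. Averaged over D4 and D6, 0 members passed in limma and in voom, with 0% of all tested loci called and 4 members (IAA2, IAA16, IAA17 and IAA20) at an unadjusted limma p under 0.05, against 9.41% of loci.

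**Figure D3:**
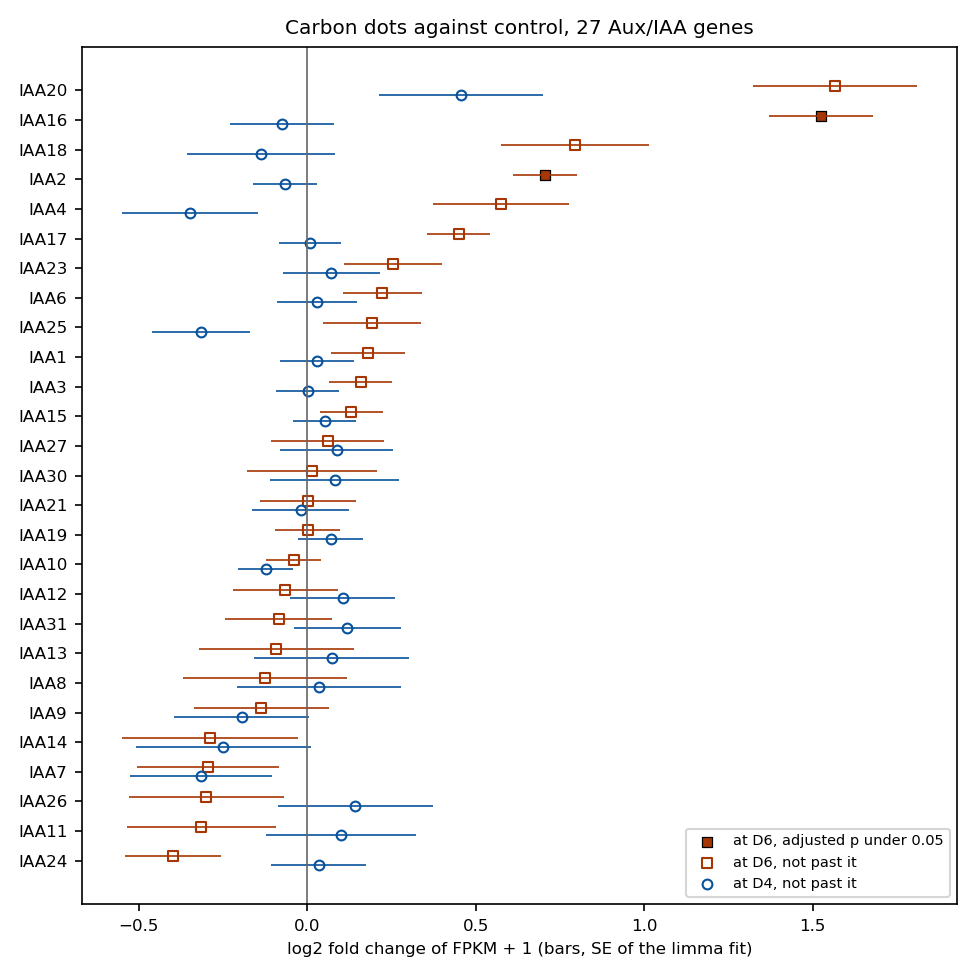
Log2 fold changes of FPKM + 1, carbon dots against control, for 27 Aux/IAA genes at D6 (squares) and D4 (circles), with the SE of the limma fit as bars and filled symbols for an adjusted p under 0.05. IAA16 at 1.52 and IAA2 at 0.71 are filled at D6, IAA20 at 1.57 is not, and the D4 values lie between -0.35 and 0.46.

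In the controls, D6 was compared with D4 to see which members differ between the samplings without treatment. IAA2 rose and IAA10 fell, 2 of 27 members or 7.41%, against 10.1% of all tested loci (5.42% higher and 4.72% lower), so the family's share was no larger than the background. Of the 27 log2 fold changes 18 were below 0, with a median of -0.21 against -0.05 over all tested loci. At an unadjusted limma p under 0.05, 2 members were higher and 8 lower, where 27.8% of all tested loci differed. The groups did not overlap for 22 members, 6 higher and 16 lower, or 81.5% of the 27, against 59.5% of loci (25.4% higher and 34.1% lower).

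IAA10 (LOC_Os02g57250, chromosome 2), the Aux/IAA protein that a rice dwarf virus protein is known to bind, stood at 28.4 and 27.6 FPKM in D4_CK, 25.7 and 25.6 in D4_100X, 19.98 and 19.8 in D6_CK, and 18.6 and 20.1 in D6_100X. All 4 D6 libraries were below all 4 D4 libraries. In the controls it fell by 0.47 ± 0.08 on the log2 scale (SE, limma adjusted p = 0.0203). IAA2 rose in the same comparison from 5.34 ± 0.200 to 8.74 ± 0.134 FPKM (log2 fold change 0.62 ± 0.09, limma adjusted p = 0.0148).

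These 2 calls did not hold in every fit with 1 library left out either, and such a fit again leaves 1 library in its group. With 1 library left out the log2 fold change ran from -0.49 to -0.45 for IAA10 and from 0.59 to 0.65 for IAA2. When only the 4 control libraries were fitted the limma adjusted p was 0.0573 for IAA10 and 0.0521 for IAA2.

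In the carbon dot roots, 9 of 27 members differed between D6 and D4, or 33.3%, against 29.8% of all tested loci. The 5 that rose were 18.5% of the members, against 14.5% of loci, and the 4 that fell were 14.8%, against 15.3%. These shares lay near the background. The groups did not overlap for 10 members on the higher and 12 on the lower side, or 81.5% of the 27, against 68% of loci (31.1% higher and 36.9% lower). Of the 2 root marker loci, NIP2-1 rose by 1.54 and LOC_Os02g44310 fell by 1.65 on the log2 scale in the same comparison (limma adjusted p = 0.00756 and 0.00366), and in the controls NIP2-1 rose by 1.49 while LOC_Os02g44310 had a value of -0.76 (limma adjusted p = 0.0903). Their part in the members' values was not tested. The comparison shares the D6_100X libraries with the carbon dot comparison at D6 and the D4_100X libraries with that at D4, so its values are not independent of those above.

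IAA16, IAA20, IAA2, IAA18 and IAA25 rose. IAA16 had the largest change, from 2.63 ± 0.265 to 15.8 ± 1.72 FPKM (log2 fold change 2.21 ± 0.15, limma adjusted p = 0.000508), and IAA2 went from 5.05 ± 0.10 to 14.9 ± 0.0664 FPKM (1.39 ± 0.09, limma adjusted p = 0.000469). IAA20 rose by 1.51 ± 0.24 on the log2 scale (limma adjusted p = 0.00580) and IAA18 by 1.16 ± 0.22 (limma adjusted p = 0.00982). In the controls the same 4 genes had D6 minus D4 values of 0.61, 0.62, 0.40 and 0.23, in the order IAA16, IAA2, IAA20, IAA18, and of these IAA2 passed.

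IAA25 (LOC_Os08g01780, chromosome 8) stood at 1.77 and 1.71 FPKM in D4_CK, 1.31 and 1.10 in D4_100X, 2.06 and 2.08 in D6_CK, and 2.84 and 2.21 in D6_100X. All D6 libraries were above all D4 libraries. In the carbon dot roots it rose by 0.67 ± 0.14 on the log2 scale (SE, limma adjusted p = 0.0151).

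IAA24, IAA31, IAA14 and IAA10 fell in the carbon dot roots. IAA24 (LOC_Os07g08460, chromosome 7) stood at 38.1 and 41.2 FPKM in D4_CK, 37.3 and 44.1 in D4_100X, 26.7 and 29.6 in D6_CK, and 18.7 and 23.7 in D6_100X. The D6_100X libraries were the lowest and the D4 groups overlapped. It fell by 0.91 ± 0.14 on the log2 scale (SE, limma adjusted p = 0.00518).

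IAA31 was at 113 and 124 FPKM in D4_CK, 109 and 153 in D4_100X, 85.9 and 87.0 in D6_CK, and 79.3 and 83.7 in D6_100X. All D6 libraries were below all D4 libraries, and the D4_100X pair was far apart. It fell by 0.66 ± 0.16 on the log2 scale (SE, limma adjusted p = 0.0227).

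IAA14 (LOC_Os03g58350, chromosome 3) was at 4.65 and 6.28 FPKM in D4_CK, 3.18 and 5.97 in D4_100X, 1.86 and 2.44 in D6_CK, and 1.59 and 1.55 in D6_100X. Its D6 values were also below its D4 values in both treatments. It fell by 1.07 ± 0.26 on the log2 scale in the carbon dot roots (SE, limma adjusted p = 0.0233), and IAA10 fell by 0.39 ± 0.08 (limma adjusted p = 0.0142). In the controls IAA14 had a log2 fold change of -1.03 (limma adjusted p = 0.0541).

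The calls of IAA2, IAA16, IAA20 and IAA24 in the carbon dot roots held without any single library of the 8. The other 5 did not, but leaving out a library leaves 1 in its group, so a lost call cannot be laid to that library. Without D6_100X replicate 1 the limma adjusted p was 0.0958 for IAA10, 0.0975 for IAA14, 0.0974 for IAA25 and 0.113 for IAA31. Without D6_100X replicate 2 it was 0.0546 for IAA10, 0.106 for IAA14, 0.0693 for IAA18 and 0.0905 for IAA31. Without D4_100X replicate 2 it was 0.0672 for IAA14 and 0.0601 for IAA25, and the log2 fold changes of IAA14 and IAA31 were -0.70 and -0.41. With D6_100X replicate 1 left out, or with replicate 2 left out, 5 members were called each time. With only the 4 carbon dot libraries fitted, IAA10, IAA14, IAA25 and IAA31 did not pass (limma adjusted p from 0.0568 to 0.0721).

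**Figure D4:**
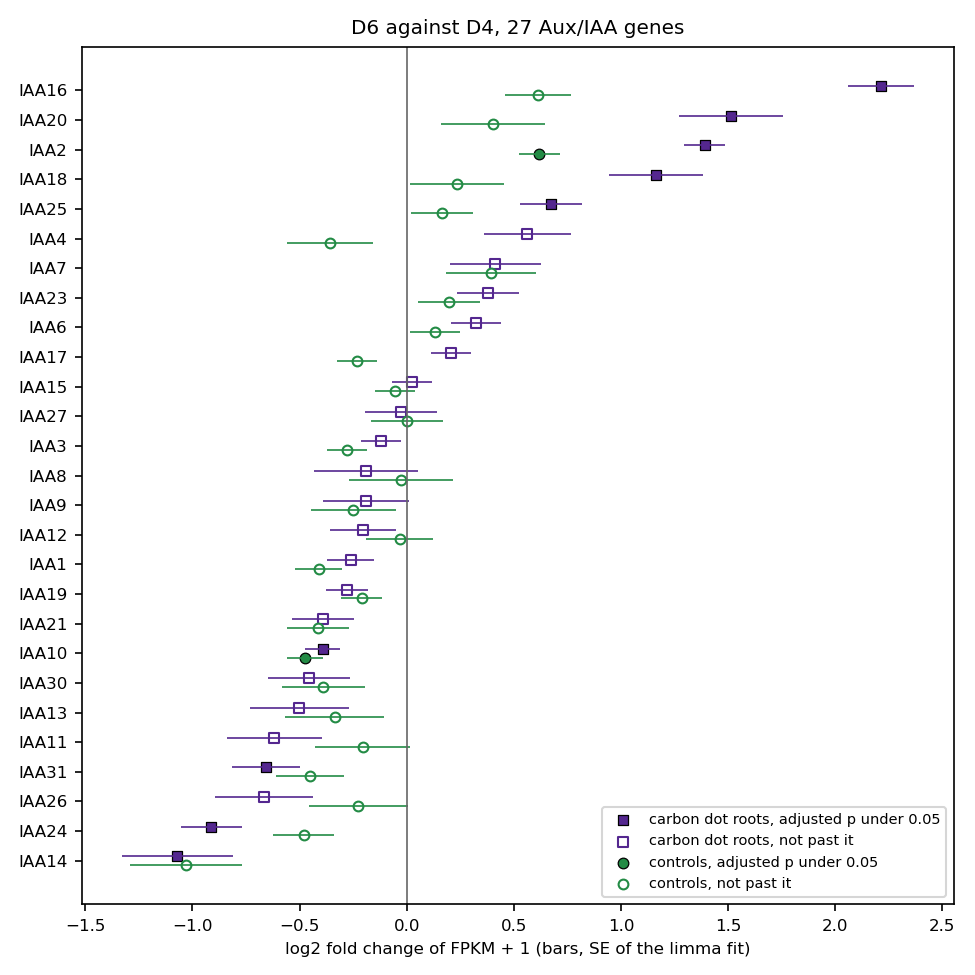
Log2 fold changes of FPKM + 1, D6 against D4, for 27 Aux/IAA genes in carbon dot roots (squares) and controls (circles), with the SE of the limma fit as bars and filled symbols for an adjusted p under 0.05. The carbon dot values run from -1.07 for IAA14 to 2.21 for IAA16, and the controls from -1.03 for IAA14 to 0.62 for IAA2.

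The partners of the Aux/IAA proteins were read from lists of loci, also chosen with earlier results of these data known. At D6, limma called 0 of 5 listed TIR1/AFB receptor, 0 of 3 TOPLESS-related and 0 of 23 tested ARF loci for carbon dots against control. Limma called 0.522% of all tested loci, so 0 calls in lists this short do not set them apart. At an unadjusted limma p under 0.05 there were 1, 1 and 6, where 15.8% of all tested loci were. Voom also called 0 in each list. At D4 none passed either, where 0% of all tested loci were called. In every list 0 were at an unadjusted limma p under 0.05, against 1.9% of loci, and voom called 0. The receptor loci lay between 11.2 and 80.1 FPKM, but no symbol could be matched to them in the reference table, so they are not named.

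ARFs are the proteins that Aux/IAA repressors bind. The 2 most abundant were ARF4 and ARF23, and ARF1 had the largest D6 fold change, followed by ARF4. ARF1 averaged 58.1 ± 4.04 against 38.2 ± 5.22 FPKM at D6 (limma adjusted p = 0.112), and ARF4 84.1 ± 3.70 against 60.6 ± 3.37 FPKM (limma adjusted p = 0.151). ARF23 was at 68.4 ± 1.25 against 55.0 ± 3.64 FPKM (limma adjusted p = 0.199). Of the TOPLESS-related loci, TPR1 was at 44.5 ± 1.87 against 34.5 ± 0.669 FPKM (limma adjusted p = 0.203) and TPR3 at 77.2 ± 1.48 against 74.3 ± 0.629 FPKM.

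Between D6 and D4 in the carbon dot roots, ARF1 (log2 fold change 1.25), ARF4 (0.99), ARF23 (0.80) and ARF9 (0.50) rose, and ARF5 (-0.75), ARF3 (-0.75), ARF22 (-0.64), ARF12 (-0.57), ARF14 (-0.54) and ARF10 (-0.49) fell, 10 of 23 or 43.5% against 29.8% of all tested loci (limma adjusted p from 0.00139 to 0.0253). ARF12 is known to promote elongation of the primary root of rice. In the same comparison 3 of 5 receptor loci and TPR1 (0.73) rose. In the controls ARF23 rose by 0.45 and ARF5 and ARF12 fell by 0.80 and 0.64 on the log2 scale, 3 of 23 or 13.0% against 10.1%. Leaving out single libraries moved the ARF counts to between 7 and 11 in the carbon dot roots and between 0 and 4 in the controls, and the receptor count in the carbon dot roots to between 0 and 3.

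Of the 6 listed auxin-responsive or root target loci 4 were tested. For carbon dots against control, 0 passed in limma or voom at D6, where limma called 0.522% of all tested loci. At an unadjusted limma p under 0.05 there was 1, against 15.8% of all tested loci. At D4 0 passed in limma or voom and 0 unadjusted, where limma called 0% of all tested loci and 1.9% unadjusted. At D6, 3 of the 4 log2 fold changes were below 0. The locus past the unadjusted threshold was LOC_Os03g05510, at 3.59 ± 1.11 FPKM with carbon dots against 7.65 ± 0.0400 without (log2 fold change -0.94, limma adjusted p = 0.0877). GH3-8, which encodes an enzyme that conjugates free auxin to amino acids, was at 22.3 ± 0.728 against 15.9 ± 1.47 FPKM at D6 (limma adjusted p = 0.386) and rose between D4 and D6 in the carbon dot roots by 1.37 on the log2 scale (limma adjusted p = 0.00698). The D6 against D4 comparison called 1 of the 4 upwards and 2 downwards in the carbon dot roots, against 29.8% of all tested loci, and 0 and 2 in the controls, against 10.1%. Leaving out single libraries moved these counts of 3 and 2 to between 2 and 4 and between 0 and 3.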

How the data were processed

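Root RNA of 8 libraries was analysed from 1 table of FPKM, which the authors deposited per locus and library. The tools named are featureCounts 1.6.4, SAMtools, HISAT2 and fastp, per the submitters' processing notes. How each was set, and on which build and annotation it ran, is not given in the sources used here. Groups came from the sample titles.

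All loci with at least 1 FPKM in at least 2 libraries (22794) were fitted as log2(FPKM + 1) with limma 3.58.1 in R 4.3.3 (lmFit, then eBayes with a mean-variance trend), with 4 group means over 8 libraries and 4 residual degrees of freedom. In each of 6 contrasts p was adjusted over these loci by Benjamini and Hochberg's method, with a threshold of 0.05. Fold changes on this scale understate those of low genes.

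The FPKM denominator was inferred from 993 of 1115 low loci (above 0 in every library and under 0.5 FPKM) whose values were whole multiples of a step within 0.002 steps. Every locus above 0 then had a gene length that made its 8 values whole reads within 0.005 reads plus a relative error of 3e-07. The recovered reads came to 99.1% of the denominator in each library. The share of wrong lengths among loci with few reads is not known.

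The members and lists were chosen with earlier results of these data known. Of the 31 members, 28 symbols were found as names or synonyms in RefSeq genes of ASM3414082v1 at a place within 0.1 chromosome lengths of that implied by the identifier's number, chromosome included. IAA22, IAA27 and IAA28 were not, and they are named by the member list. RefSeq gives IAA4, IAA5 and IAA13 a further IAA number each (IAA20, IAA8 and IAA1). Other genes are named only where so matched. Values in every library are given for members past the threshold in any contrast, the 5 most abundant, and the 3 with the largest carbon dot fold changes at D6, at D4 and in their difference. Protein and promoter sequences were not used here. The alternatives are pseudocount, filter, median centring, replicate terms, voom, the libraries fitted and leaving out each library.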

Additional observations from a re-analysis of the deposited data

How the results depend on the processing

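For carbon dots against control at D6, 2 members were called, against 0 with a pseudocount of 0.1, 0 without a filter and 0 to 2 leaving out single libraries. Median centring, voom and a fit of the 4 D6 libraries alone each gave a count within 1.5 times of it. For D6 against D4, 2 control calls and 9 carbon dot calls were made. Leaving out single libraries gave 0 to 4 and 5 to 13, and fitting only the 4 libraries compared gave 0 and 5. No alternative called a member at D4, in the mean effect or in the interaction.

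The replicate numbers are not stated to pair the libraries. Deviations of same-numbered libraries correlated at 0.602 between the D4 groups and -0.112 between the D6 groups, across 22794 loci. With the replicate block, 0 members were called at D6 (limma adjusted p = 0.0510 for IAA16 and 0.0639 for IAA2), 4 between D6 and D4 among controls, and for carbon dot roots a count within 1.5 times of 9. With a block within D4 and within D6 the member counts were 4, 5 and 14. IAA20 (limma adjusted p = 0.0272) and IAA18 (0.0440) were added at D6. Of all 22794 tested loci the block within D4 and D6 called 778, 4267 and 8644, and the replicate block 11, 2596 and 7058. With the D6_100X numbers crossed, a fit chosen after seeing the data, the member counts were 4, 8 and 18. That fit called 1272, 4982 and 9399 of all tested loci.

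Over all tested loci the D6 carbon dot comparison called 119, with 0 to 231 leaving out single libraries, 16 with the pseudocount of 0.1, 11 without a filter, 11 with the replicate block, 778 and 1272 with the block within D4 and D6 as numbered and crossed, and 697 from the 4 D6 libraries. D6 against D4 called 2311 among controls (60 to 2911 leaving out single libraries, 1292 to 4982 otherwise) and 6789 in the carbon dot roots (2862 to 6766 and 4712 to 9399). The interaction called 2 (0 leaving out any library, 0 to 60 otherwise), the D4 comparison 0 (0 to 2) and the mean effect 0 (0 to 3).

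Of 333 recomputed log2 fold changes of named members, 1 turned its sign, IAA7 at D4 (0.022 without D4_100X replicate 1, the highest of the values with a library left out, and -0.65 without D4_100X replicate 2, the lowest). Another 42 lost and 4 gained a call. The cause was not tested. With 2 libraries a group, the SE of about 0.1 to 0.3 limits what could be called.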
